A study of Mus musculus with 2 samples.

Results

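The cells described here are corneal epithelial cells with a basal keratin profile and high levels of 6 cell cycle genes. They were chosen cell by cell from CPM, the UMI count of a gene scaled to a total of 1000000 UMIs in that cell, where a UMI marks a single captured RNA molecule. A corneal basal cell had at least 2000 CPM of Krt14, the keratin of basal epithelial cells, and at least 8000 CPM of Krt12, the keratin of the corneal epithelium. It also had under 500 CPM of Gpha2, a marker of the outer limbus, under 250 CPM of the eye transcription factor Pax6, and under 2000 CPM of Dcn, the stromal proteoglycan decorin. Among these cells, those whose CPM of Top2a, Ube2c, Birc5, Cdk1, Cdca8 and Cdca3 summed to at least 300 CPM were called cycling, and the others non-cycling. The sum is called the score below. The rule gave 410 cycling cells of 7668 barcodes in all, 137 of 2513 in the wild-type library and 273 of 5155 in the heterozygote library. Non-cycling corneal basal cells numbered 561 and 1022.

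The tissue was the cornea and limbus rim of C57BL/6 mice, from which single cells were captured in droplets and sequenced by the 10x Genomics method. The 2 libraries came from 1 wild-type and 1 Beclin1 +/- female, littermates of 28 days, and the cells of both were freed with collagenase A and then trypsin. Beclin1 (Becn1) is a part of the lipid kinase complex that starts autophagosomes. With 1 animal and 1 library per genotype, genotype, animal and library cannot be told apart, no difference has a replicate check, and no p-value is given. Every interval below is a 95% interval of counting error alone.

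The corneal epithelium is a stratified sheet that is renewed from its basal layer. Stem cells at the limbus give rise to transit amplifying cells, which move across the basal layer, divide there, and send daughters up into the wing and superficial layers. A dividing cell first copies its DNA in S phase, when it makes replication proteins, deoxynucleotides and histones. In G2 and mitosis it then makes cyclin B, kinetochore and spindle proteins, and afterwards the anaphase-promoting complex (APC/C) destroys many of them. Of the 6 genes of the score, Cdk1 is the kinase that drives mitosis, Top2a untangles replicated DNA, and Ube2c feeds ubiquitin to the APC/C. Birc5 (survivin) and Cdca8 (borealin) belong to the chromosomal passenger complex, and Cdca3 marks the mitotic brake Wee1 for destruction. The score therefore leans to the G2 and mitotic side of the cycle.

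Late cell cycle promoters are known for 2 short elements, the CHR (letters TTTGAA or TTCGAA), which binds the DREAM and B-Myb complexes, and the CCAAT box, which binds NF-Y. Early ones are known for E2F sites, searched here as TTTCGCGC, TTTGGCGC, TTTCCCGC or TTTGCCGC. All 3 motifs were searched on both strands in RefSeq promoters of GRCm38.p6, in windows of 300 bases from 250 before to 50 after each start. A CCAAT box can share 2 bases with its own reverse, and each direction then counts as a match. In the windows of 5 of the 6 score genes both a CHR and a CCAAT box were found. The exception was Birc5, which held none of the 3 motifs, and only Cdk1 of the 6 held an E2F match.

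The 6 promoters below show the arrangement in 2 score genes, in 2 mitotic genes that the rule did not use, and in 2 deoxynucleotide genes. Each runs 5′ to 3′ on the gene's strand from position -200 to -10 of the RefSeq start site in GRCm38.p6, and capitals mark CHR, CCAAT and E2F matches.
Ube2c promoter, chr2:164769729-164769919, plus strand: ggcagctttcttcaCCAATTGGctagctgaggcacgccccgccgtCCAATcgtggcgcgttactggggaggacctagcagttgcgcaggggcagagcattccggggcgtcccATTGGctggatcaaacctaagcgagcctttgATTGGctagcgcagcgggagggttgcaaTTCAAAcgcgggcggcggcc
Cdk1 promoter, chr10:69352922-69353112, minus strand: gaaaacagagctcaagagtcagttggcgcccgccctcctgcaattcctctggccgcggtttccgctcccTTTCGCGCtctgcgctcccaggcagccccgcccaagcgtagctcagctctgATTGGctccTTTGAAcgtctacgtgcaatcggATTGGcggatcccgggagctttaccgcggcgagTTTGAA
Cdc20 promoter, chr4:118437353-118437543, minus strand: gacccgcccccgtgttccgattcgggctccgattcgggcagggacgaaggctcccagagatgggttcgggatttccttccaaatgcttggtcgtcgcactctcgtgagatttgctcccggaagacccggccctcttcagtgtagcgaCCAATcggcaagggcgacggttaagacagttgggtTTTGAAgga
Ccnb2 promoter, chr9:70421564-70421754, minus strand: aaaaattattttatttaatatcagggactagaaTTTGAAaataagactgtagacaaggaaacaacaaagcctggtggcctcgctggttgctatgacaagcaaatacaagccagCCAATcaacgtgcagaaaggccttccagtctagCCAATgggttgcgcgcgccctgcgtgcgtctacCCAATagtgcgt
Rrm2 promoter, chr12:24708054-24708244, plus strand: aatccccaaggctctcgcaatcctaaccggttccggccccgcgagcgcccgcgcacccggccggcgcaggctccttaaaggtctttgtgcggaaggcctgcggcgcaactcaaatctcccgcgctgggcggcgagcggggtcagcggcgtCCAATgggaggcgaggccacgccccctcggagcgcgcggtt
Tyms promoter, chr5:30073635-30073825, minus strand: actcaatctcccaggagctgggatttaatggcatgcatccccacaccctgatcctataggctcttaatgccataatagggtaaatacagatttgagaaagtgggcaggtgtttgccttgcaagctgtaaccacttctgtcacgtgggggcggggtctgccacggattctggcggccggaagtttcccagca

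In Ube2c the CHR began at position -29, on the reverse strand, with CCAAT matches upstream of it. Cdk1, with CHR matches at positions -71 and -15, also held the E2F match at position -131. Cdc20, the activator of the APC/C, had its CHR at position -18 and a CCAAT box at position -53. Ccnb2, a B-type cyclin, had CCAAT boxes at positions -87, -54 and -21, and its CHR lay far upstream at position -167. Rrm2, a subunit of ribonucleotide reductase, had a CCAAT box at position -50 alone, and Tyms, which makes thymidylate, had no match of any kind. Among the mitotic genes listed below that were at least 2-fold higher in cycling cells of both libraries, 22 of 27 had a promoter in the table, and 13 of these 22 genes (59.1%) held a CHR. Of all 27025 genes with a promoter, 21.7% did. A CCAAT box was found in 18 of the same 22 genes (81.8%) against 41.1% of all genes, and both elements in 12 (54.5%) against 8.61%. Over the whole mitotic lists, without regard to expression, 48 of 79 genes with a promoter (60.8%) held a CHR. A CCAAT box was found in 54 of the 79 (68.4%) and both elements in 39 (49.4%). The CHR share of the higher genes was thus near that of their lists. Of the 11 replication and deoxynucleotide genes at least 2-fold higher in both libraries, 10 had a promoter. A CHR was found in 1 of these 10 (10.0%), a CCAAT box in 4 (40.0%) and an E2F match in 1 (10.0%). Over the whole replication and deoxynucleotide lists, without regard to expression, 17 of 47 genes with a promoter (36.2%) held an E2F match against 2.61% of all genes. These are matches of letters in a fixed window and say nothing on binding.

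Among corneal basal cells the cycling share was 19.6% (137 of 698, 16.7% to 22.8%) in the wild-type and 21.1% (273 of 1295, 18.9% to 23.4%) in the heterozygote library. The intervals overlap. With every cell thinned to 8000 UMIs the shares were 19.9% and 21.8%, after 108 shallower corneal basal cells of the heterozygote library, 16 of them cycling, were left out. No wild-type cell was shallower than that. Thinned to 5000 UMIs, with no cell left out, they were 20.2% and 20.9%. The shares thus stayed within 2 percentage points of each other at every depth tried.

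**Figure D1:**
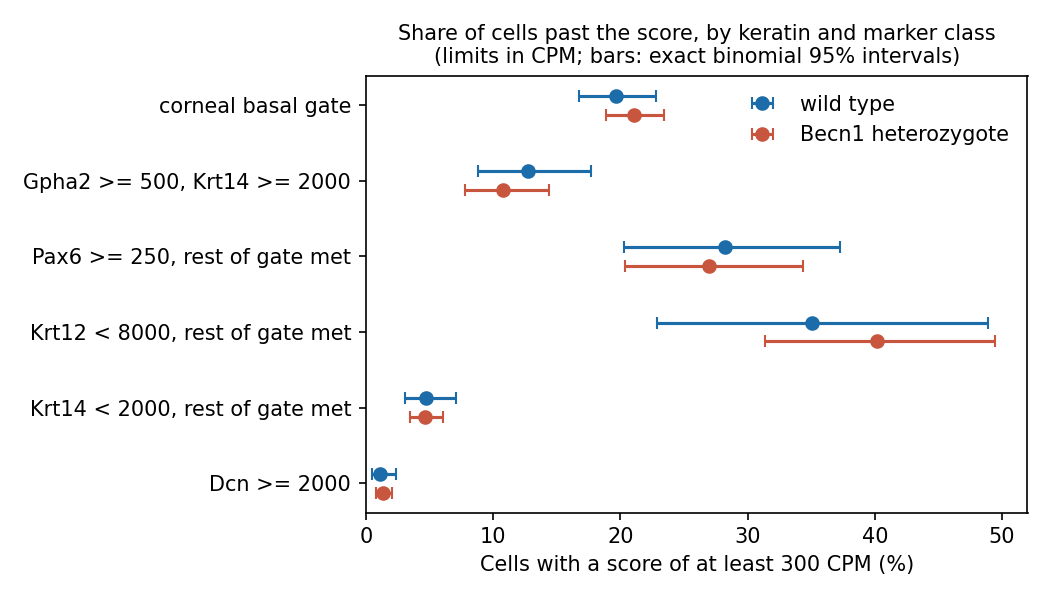
Share of cells, in percent, with a score of at least 300 CPM in the corneal basal gate and in the classes around it, with exact binomial 95% intervals, for the wild-type and the heterozygote library. Cells low in Krt12 or high in Pax6 had the highest shares in both libraries, and cells low in Krt14 or high in Dcn the lowest.

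Classes of cells just outside the gate showed how the share varied around it. Cells that met all conditions but that on Krt12 and held less of it had shares of 35.1% (20 of 57) in the wild-type and 40.2% (49 of 122) in the heterozygote library. Cells that failed on Pax6 alone had 28.2% (33 of 117) and 26.9% (45 of 167). Both classes stood above the corneal basal share in both libraries, though the intervals of the Pax6 class (20.3% to 37.3% and 20.4% to 34.3%) overlap those of corneal basal cells. Cells with at least 500 CPM of Gpha2 and high Krt14, on the limbal side, had 12.8% (30 of 235, 8.78% to 17.7%) and 10.8% (40 of 371, 7.82% to 14.4%), below it in both, with intervals that overlap in the wild-type library only. Cells that failed on Krt14 alone, below the basal keratin range, had 4.77% (23 of 482) and 4.63% (52 of 1122). Cells with at least 2000 CPM of Dcn had 1.15% (7 of 609) and 1.33% (20 of 1507), and 13 of those 20 heterozygote cells were called doublets. The order of the classes was the same in both libraries. A cell with few UMIs of a gate gene falls in or out of a class by counting error, and the part of this in the shares was not tested.

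The scored cells of the neighbouring classes differed from the cycling corneal basal cells in genes outside the gate. Krt15, a limbal keratin, stood at 6073 and 4604 CPM in scored cells of the Gpha2-high class, against 378 and 475 CPM in cycling corneal basal cells (wild-type value first, here and below). Scored cells that failed on Krt12 alone also held more Krt15, at 2878 and 2340 CPM. High Krt15 was thus found both in a class below the corneal basal share and in the class with the highest share. Cdkn1a, which encodes the inhibitor p21, was at 673 and 908 CPM in scored cells of the Pax6-high class, against 2052 and 1919 CPM in cycling corneal basal cells. Ccnd1 (cyclin D1) was at 284 and 207 CPM in that class, against 86.2 and 108 CPM. The same class thus held more cyclin D1 and less p21 than the cycling corneal basal cells in each library.

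Cycling cells held more RNA than their non-cycling neighbours. Their median depth was 22872 UMIs (wild-type) and 16044 UMIs (heterozygote), against 17295 and 11586 UMIs, so the medians stood in ratios of 1.32 and 1.38. They had a median of 3850 and 3137 genes with a UMI, against 3020 and 2435. Thinned to 8000 UMIs the gene numbers were 2162 and 2125 against 1995 and 1983.5, a smaller gap in the same direction. Over a group, cycling cells gave 3305741 and 4564533 UMIs, and non-cycling cells 10575429 and 13813242 UMIs. The median mitochondrial share in cycling cells was 1.65% and 1.60%. Doublet calls took in 2 wild-type and 10 heterozygote cycling cells (1.46% and 3.66%). Of the 15 barcodes present in both libraries, 1 belonged to a cycling cell.

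The score itself, a description of what chose the cells, had a median of 1473 CPM over wild-type cycling cells and of 1283 CPM over those of the heterozygote. It ran from 300 to 3370 CPM and from 305 to 4252 CPM, on a median of 34 and 21 UMIs per cell. All 6 genes had a UMI in 98 of 137 and in 124 of 273 cells. Ube2c had the highest summed CPM of the 6, at 584 CPM in cycling and 9.08 CPM in non-cycling wild-type cells, and at 562 and 10.6 CPM in the heterozygote. Top2a stood at 198 against 1.89 CPM and at 160 against 3.47 CPM. Birc5 stood at 234 against 5.01 CPM and at 221 against 6.30 CPM. These values were set by the rule. Cells just below the threshold, with 200 to 300 CPM, numbered 17 and 42, and cells just above it, with 300 to 400 CPM, 12 and 27. The summed level of 98 mitotic genes other than the score genes had medians of 3546 and 4014 CPM just below the threshold and of 4116 and 4007 CPM just above it. The heterozygote cells on the 2 sides of the threshold thus had nearly the same mitotic level.

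The corneal basal label was checked on genes that the rule did not use. Krt5, the partner of Krt14, was at 3951 and 3545 CPM in cycling cells, and Trp63, the transcription factor of basal epithelium, at 75.9 and 73.8 CPM. These levels do not set the cells apart from their neighbours: scored cells of the Pax6-high class held Krt5 at 6041 and 5138 CPM, and those that failed on Krt14 at 5748 and 4853 CPM. Aldh3a1, the corneal crystallin enzyme, was at 12726 and 11151 CPM. Scored cells of the Pax6-high class held more of it (19961 and 18143 CPM), and those of the Gpha2-high class less (1692 and 2877 CPM). Of the suprabasal or superficial markers, Krt78 was at 0.605 and 2.85 CPM, but Lypd3 was at 1880 and 1748 CPM. Lypd3 was at 634 and 634 CPM in the Pax6-high class and at 1653 and 2174 CPM in cells that failed on Krt14. A suprabasal marker was thus present at a high level in the cycling cells. Of 10 immune markers, 9 were at 0 in the wild-type cycling cells and 8 in the heterozygote, and Ptprc, Lyz2 and Tyrobp were at 0 in both. Of 6 mast cell markers, Mcpt4, Cma1, Tpsb2, Cpa3 and Fcer1a were at 0 in both as well, and the list summed to 14.2 and 12.5 CPM through the remaining member, Kit. Stromal markers summed to 93.8 and 182 CPM in cycling cells and to 105 and 200 CPM in non-cycling cells.

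Genes beyond the rule were compared between cycling and non-cycling cells of the same library, as log2 ratios of summed CPM with 0.5 added to each count. A gene was measured when its mean over the 4 sums was at least 20 CPM, which left 4072 genes without the rule genes. The cells were split by 6 mitotic genes, so the differences that follow describe the cells chosen and are no test. Of the measured genes, 103 (2.53%) were at least 2-fold higher in cycling cells of both libraries and 19 (0.467%) at least 2-fold lower. Of the 103 genes, 53 were on the cell cycle lists used here and 50 were not. The median over all measured genes was 0.09 in both libraries. A scaling that sets the bulk of genes equal (TMM) lowers every ratio by 0.135 and 0.120, so small positive ratios are read against that shift.

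**Figure D2:**
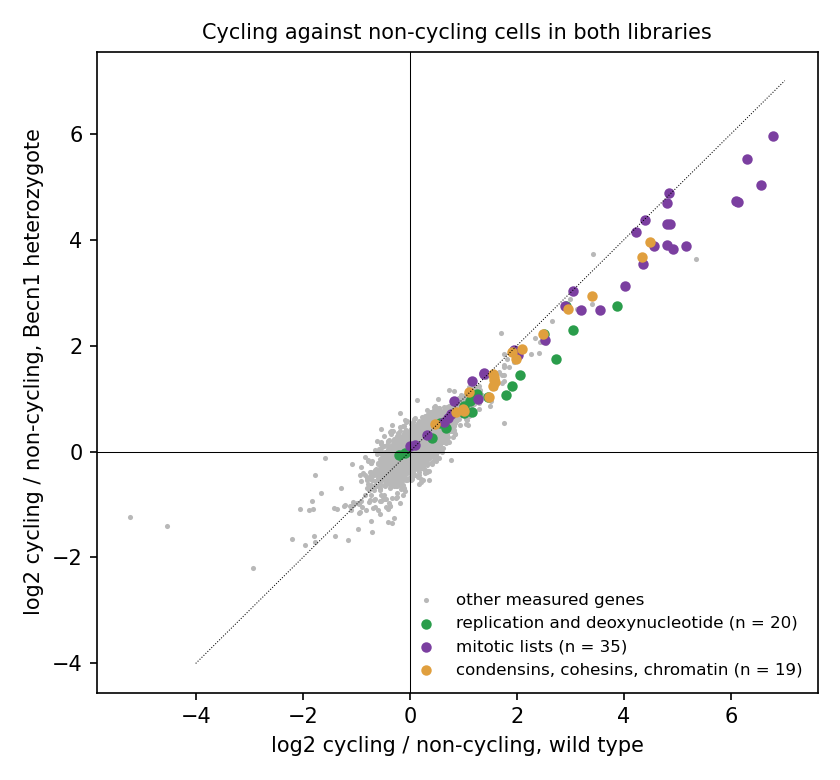
Log2 ratio of cycling over non-cycling corneal basal cells in the heterozygote library (y axis) against the wild-type library (x axis) for the 4072 measured genes. Genes at least 2-fold higher in both lie at the upper right, where mitotic genes reach ratios above 4, and the 19 genes lower in both lie at the lower left.

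Cyclins and mitotic kinases were higher without exception. All 20 members of the list had a UMI and were higher in both libraries, and the 7 measured ones were all at least 2-fold higher, with median ratios of 4.81 and 4.30. Ccnb1, cyclin B1, stood at 70.8 CPM in cycling and 0.851 CPM in non-cycling wild-type cells, and at 71.2 and 1.52 CPM in the heterozygote (6.30 and 5.52). Ccna2, cyclin A2, stood at 95.6 against 1.32 CPM and at 85.7 against 3.26 CPM (6.13 and 4.70). Ccnb2 stood at 133 against 4.73 CPM and at 141 against 7.17 CPM (4.80 and 4.30). These 3 cyclins were thus at under 10 CPM in non-cycling cells of both libraries. Most genes of this kind passed the filter on level only through the cycling cells, where they are high, so a share of measured genes has no weight of its own here.

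Kinetochore, spindle and cytokinesis genes followed the same pattern. On the kinetochore list all 25 members with a UMI were higher in both libraries, and the 9 measured ones had medians of 4.01 and 3.12. Spc25, of the Ndc80 complex that holds microtubules, was at 41.4 against 0.567 CPM and at 39.0 against 1.45 CPM (6.08 and 4.72). Cenpa, the histone H3 variant of centromeres, was at 192 against 9.17 CPM and at 209 against 10.1 CPM (4.38 and 4.38). Cenpe, the kinetochore motor, was at 58.7 against 1.99 CPM and at 54.6 against 2.75 CPM (4.86 and 4.29). On the spindle list all 30 members with a UMI were higher, 9 were measured, and 6 of these were at least 2-fold higher in both. Nusap1, which bundles spindle microtubules, had the highest heterozygote ratio of any measured gene, at 110 against 0.946 CPM and at 87.0 against 1.38 CPM (6.79 and 5.95). Tpx2, the activator of Aurora A, was at 57.2 against 3.03 CPM and at 48.0 against 2.68 CPM (4.22 and 4.15). All 12 cytokinesis genes were higher, with Prc1, the midzone bundler, at 85.6 against 2.93 CPM and at 78.0 against 2.61 CPM (4.85 and 4.89).

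The APC/C list covered a wide range of ratios. All 13 members were higher in both libraries, yet only 3 of the 8 measured were at least 2-fold higher, and the median ratios were 0.70 and 0.63. Cdc20 stood at 173 CPM in cycling against 6.15 CPM in non-cycling wild-type cells, and at 167 against 6.44 CPM in the heterozygote (4.80 and 4.69). Fzr1, the other activator of the complex, was at 34.2 against 15.4 CPM and at 35.3 against 14.1 CPM (1.15 and 1.32). Ube2s, which extends the ubiquitin chains that Ube2c begins, stood at 1172 against 305 CPM and at 1113 against 295 CPM (1.94 and 1.92). Pttg1 (securin), the substrate that holds back chromosome separation, had ratios of only 0.32 and 0.32. The activator Cdc20 thus differed far more between the groups than securin did.

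Chromatin and condensin genes had the most measured members at least 2-fold higher among the cell cycle lists, with 15 of 19 measured members at least 2-fold higher and medians of 1.58 and 1.41. H2afz, the histone variant H2A.Z, had the highest CPM of the list, at 2654 against 878 CPM and at 2717 against 1090 CPM. Smc2 and Smc4, the ATPases of condensin, had ratios of 4.33 and 3.67 and of 3.40 and 2.93. Stmn1, which takes microtubules apart, was at 811 against 39.7 CPM and at 666 against 57.3 CPM, and Tubb5, a beta tubulin, at 1374 against 149 CPM and at 1083 against 170 CPM. Tubulins and histones have near-identical copies, and how the counting divided reads among them is not given in the sources used here. Replication-dependent histone genes lack poly(A) tails and are poorly caught by this chemistry. All 17 on the list had a UMI, and 14 were higher and 1 lower in cycling cells of both libraries. Only 3 were measured, with medians of 0.41 and 0.65. Of these 3, 2 were higher and 1 lower in both libraries, and none was 2-fold higher in both.

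Replication genes were higher by less than the cyclins, the kinetochore genes and the spindle genes, a difference that the choice of cells by mitotic genes helps to fix. On the list of 44, 42 were higher in both libraries, but only 11 were measured, and 6 of these were at least 2-fold higher, with medians of 1.16 and 1.03. Pcna, the sliding clamp of DNA polymerase, stood at 61.1 CPM in cycling and 27.4 CPM in non-cycling wild-type cells, and at 42.7 and 25.6 CPM in the heterozygote (1.16 and 0.74). Rfc5, of the clamp loader, had ratios of 2.73 and 1.74, and Gins2, of the replicative helicase, lay below the filter on level, at 16.3 against 16.7 CPM and at 16.9 against 20.0 CPM (-0.03 and -0.24). Among the 12 deoxynucleotide genes 9 were higher in both, and 5 of 9 measured were at least 2-fold higher. Tk1, thymidine kinase, stood at 67.8 against 4.63 CPM and at 56.7 against 8.47 CPM (3.86 and 2.74). Tyms stood at 117 against 14.1 CPM and at 96.2 against 19.6 CPM (3.05 and 2.29), and Rrm2 at 104 against 13.8 CPM and at 75.8 against 11.3 CPM (2.92 and 2.74). Samhd1, which breaks deoxynucleotides down, was lower, at -0.44 and -0.67. The highest gene of a replication kind was 2810417H13Rik (Pclaf), a PCNA-binding factor, at 301 against 7.38 CPM and at 254 against 20.6 CPM (5.34 and 3.63).

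Shares of cells with a UMI, after thinning to 8000 UMIs, were set beside those in Dcn-high cells, whose median depths before thinning were 11934 and 8396 UMIs. Ube2c had a UMI in 81.8% of wild-type and 83.3% of heterozygote cycling cells, in 5.35% and 8.92% of non-cycling cells, and in 4.11% and 5.13% of Dcn-high cells. Mki67, the proliferation antigen, had a UMI in 51.8% and 34.2% of cycling cells against 2.32% and 2.58% of non-cycling cells. Pcna had a UMI in 34.3% and 27.6% of cycling cells, 20.3% and 17.8% of non-cycling cells and 22.3% and 19.2% of Dcn-high cells. In Lce3a-high cells of the superficial layer, of median depths 30172.5 and 20695 UMIs, Pcna had a UMI in 6.82% (3 of 44) and in 0 of 103 cells, with an upper limit of 3.52%. Thinning left out 629 Dcn-high, 92 non-cycling, 16 cycling and 6 Lce3a-high cells of the heterozygote library, and none of the wild-type. The heterozygote shares, above all that of the 878 Dcn-high cells kept, thus cover the deeper cells only. The Pcna share of non-cycling cells thus did not stand above that of Dcn-high cells but stood above that of Lce3a-high cells, so these classes set no single background for it.

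**Figure D3:**
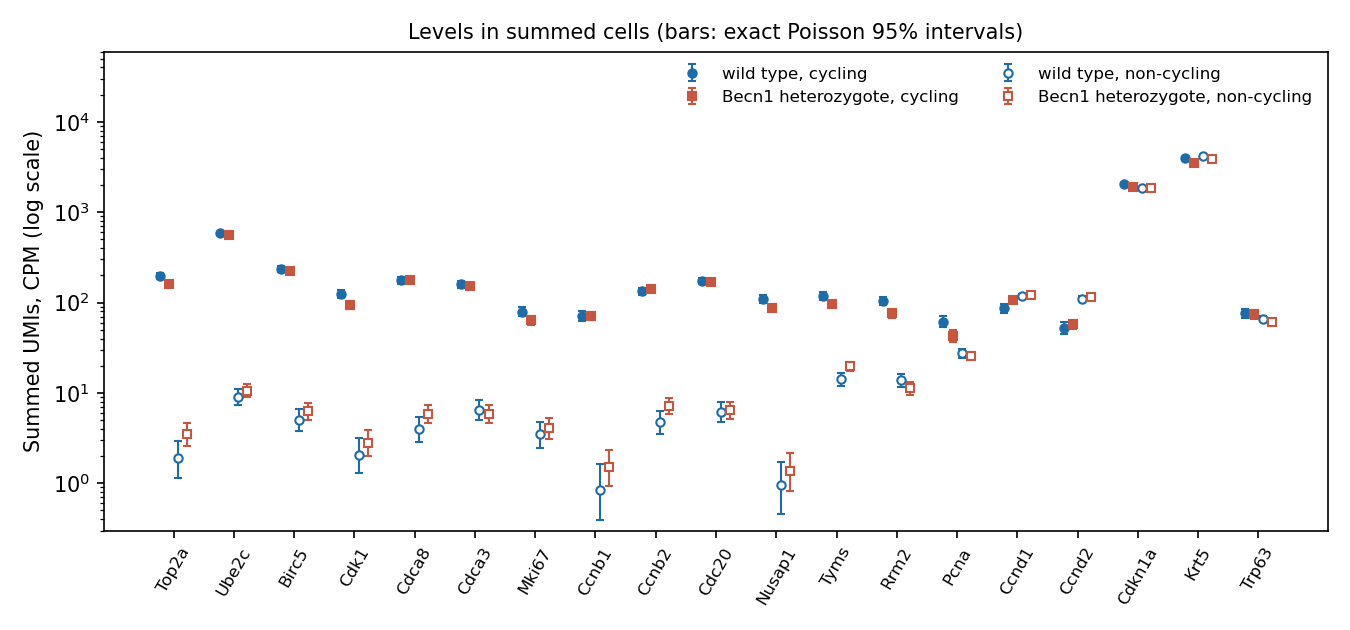
Summed level (CPM, log scale) of genes named in the text in cycling and non-cycling corneal basal cells of each library, with exact Poisson 95% intervals. Mitotic genes such as Ccnb1 differ by well over 10-fold between the groups in both libraries, while Pcna and Krt5 differ far less.

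Among the cycling cells chosen here, replication and mitotic levels were only loosely tied cell by cell. The sum of 56 replication and deoxynucleotide genes had a median of 1248 and 1070 CPM in cycling cells and of 644 and 660 CPM in non-cycling cells. The mitotic sum had medians of 12572 and 10074 CPM against 2620 and 2530 CPM. Within the cycling cells the 2 sums had a Pearson correlation of 0.32 and 0.43 on the log scale. Their Spearman correlation was 0.28 and 0.47. The 137 and 273 cells came from 1 library each and ranged from 8806 to 88531 and from 5567 to 70154 UMIs. They were also chosen by mitotic genes, and the part of depth and of that choice in the correlations was not tested. Of the non-cycling cells, 77 of 561 (13.7%) and 216 of 1022 (21.1%) had a replication sum above the cycling median. None of them had a mitotic sum above the cycling median. Cells with replication levels as high as those of cycling cells were thus present on the other side of the threshold, as the choice of score genes allows.

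**Figure D4:**
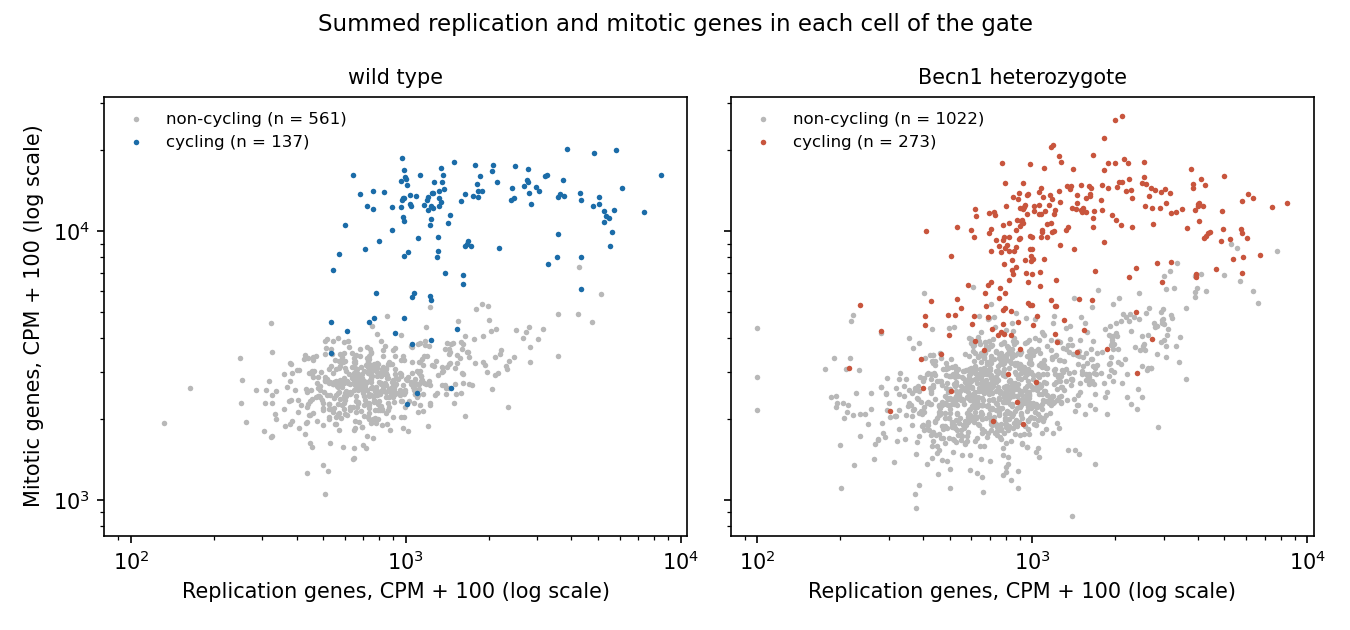
Summed level of 56 replication genes (x axis, CPM, log scale) and of 98 mitotic genes (y axis, CPM, log scale) in each corneal basal cell, by library and group. Cycling cells lie above non-cycling cells on the mitotic axis, while the groups overlap widely on the replication axis.

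To see what went with this difference, the cycling cells of each library were ordered by the log2 ratio of replication to mitotic level and divided into 3 groups, of 46, 46 and 45 wild-type and of 91, 91 and 91 heterozygote cells. The replication end had a lower median score than the mitotic end, at 1087 against 2091 CPM and at 856 against 1908 CPM. Its median depth was lower as well, at 19868 against 24381 UMIs and at 15227 against 16269 UMIs. The part of score and depth in the differences below was not tested. Of 2169 genes measured outside the 2 sums, 13 (0.599%) were at least 2-fold higher at the replication end in both libraries and 4 (0.184%) at the mitotic end. At the replication end 2810417H13Rik stood at 543 CPM against 133 CPM at the mitotic end in the wild-type, and at 469 against 113 CPM in the heterozygote library (2.02 and 2.05), and Siva1, a proapoptotic adaptor, was higher by 1.49 and 1.71. At the mitotic end Knstrn, a spindle adaptor, stood at 115 CPM against 18.4 CPM at the replication end in the wild-type, and at 109 against 28.0 CPM in the heterozygote. Arl6ip1, an endoplasmic reticulum membrane protein, followed with ratios of -1.93 and -1.69 (replication over mitotic end), and Hn1, also called Jpt1, with -1.72 and -1.27. Bnc1, basonuclin 1 of basal keratinocytes, was at -0.82 and -0.82.

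Of 6 measured alarm and innate defence genes, 5 were higher at the replication end in both libraries (medians 1.54 and 0.96), beside 30.3% of all genes, and the same number was without doublet calls (1.55 and 0.82). The stress keratin Krt6b was higher there by 2.71 and 2.52, and Pdzk1ip1, a small membrane protein, by 2.35 and 1.45. Defb1, an antimicrobial defensin, was higher by 2.11 and 1.96, and Plac8 by 1.44 and 1.84. Pglyrp1, which was not on the alarm and innate list, was higher by 1.48 and 1.81. The replication end held 1 wild-type and 6 heterozygote cells called doublets. Without doublet calls the heterozygote ratios were 0.72 for Krt6b, 0.48 for Pdzk1ip1, 1.04 for Defb1, 0.41 for Pglyrp1 and -0.00 for Plac8, so most of the heterozygote difference of Krt6b, Pdzk1ip1, Pglyrp1 and Plac8 came with those cells. Cholesterol synthesis genes lay at the mitotic end, with 11 of 13 measured members lower at the replication end in both libraries, beside 40.5% of all genes, and medians of -0.30 and -0.44. Sqle, squalene epoxidase, was at -0.70 and -0.51.

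Genes of G1 and of cell cycle exit divided in sign. Ccnd2, cyclin D2, stood at 52.9 CPM in cycling and 111 CPM in non-cycling wild-type cells, and at 57.4 and 115 CPM in the heterozygote (-1.06 and -1.003). It was the single member of 12 measured G1 genes that was 2-fold lower. Ccnd1 was at 86.2 against 118 CPM and at 108 against 121 CPM (-0.46 and -0.17). Cdk4, the partner kinase of the D cyclins, was higher, at 0.62 and 0.38, and the EGF receptor ligands Areg and Hbegf were lower, at -0.53 and -0.31 and at -0.50 and -0.39. Of 13 inhibitors and p53 targets measured, 5 were higher and 5 lower in both libraries, where 52% of all measured genes were higher and 25.8% lower. Cdkn1a was abundant in both groups, at 2052 against 1846 CPM and at 1919 against 1836 CPM. Cdkn2d, the inhibitor p19 of Cdk4, was higher by 0.73 and 0.86, and Ccng2, a cyclin of arrested cells, lower by -0.66 and -0.90.

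Outside the cell cycle lists, the 50 genes at least 2-fold higher in both libraries were of many kinds. The lists are not complete, and a gene outside them can still serve the cell cycle. The spindle adaptor Knstrn and the PCNA-binding factor 2810417H13Rik, described above, are among these 50. Arl6ip1 had the highest CPM of the 50, at 416 against 82.0 CPM and at 404 against 91.9 CPM (2.34 and 2.13). Hn1 was at 304 against 63.1 CPM and at 312 against 86.9 CPM. Dek, a chromatin protein, was at 308 against 97.3 CPM and at 278 against 97.8 CPM (1.66 and 1.505). Ptn, the secreted growth factor pleiotrophin, was at 54.5 against 6.24 CPM and at 48.0 against 7.46 CPM (3.12 and 2.68). Lbr, the lamin B receptor, had ratios of 1.76 and 1.44, and the splicing factors Lsm2, Lsm3 and Lsm5 had 1.17 and 1.23, 1.86 and 1.60, and 1.41 and 1.47. These genes were picked for naming after their values were seen.

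Basal identity genes differed little between the groups. Of 18 measured, 7 were higher and 7 lower in both libraries, with medians of -0.01 and 0.07, beside 52% higher and 25.8% lower among all measured genes. Krt5 stood at 3951 against 4161 CPM and at 3545 against 3909 CPM. Lama3, a laminin chain of the basement membrane, was at 0.31 and 0.28, and Aldh3a1 at -0.25 and -0.13. Krt12, a gene of the gate, was at 17143 against 21707 CPM and at 16001 against 21193 CPM. Wing and suprabasal markers were mostly lower, with 11 of 18 lower and 1 higher in both. Slurp1, a secreted corneal Ly6 protein, was among the lower ones, at 1938 against 2867 CPM and at 2071 against 2872 CPM (-0.56 and -0.47). Perp, a desmosomal protein, was at -0.28 and -0.27, and Notch3 was the exception at 0.26 and 0.32.

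All 6 measured superficial cell markers were lower in both libraries, beside 25.8% lower among all measured genes. Some passed the filter on level through the non-cycling cells, where they are high, so this count has no weight of its own. Cnfn, for example, stood at 10.9 against 50.7 CPM and at 15.8 against 50.1 CPM. Of all 11 members with a UMI, 9 were lower and 1 higher in both libraries. Cnfn, 1 of the 6, had ratios of -2.20 and -1.66. Krt4, of the limbal and conjunctival list, and Crct1, on none of the lists, are given beside the superficial markers here. The sums of Lce3a, Krt4, Crct1 and Psca rested on few cells. Lce3a, a late cornified envelope gene, stood at 9.08 against 214 CPM in the wild-type and at 35.3 against 93.8 CPM in the heterozygote (-4.54 and -1.41), and 94.6% of the wild-type non-cycling UMIs came from 1 cell. Without the cell with most UMIs in each group its ratios were -0.52 and -1.99. Krt4, a keratin of the superficial and conjunctival layers, stood at 8.47 against 65.8 CPM and at 14.0 against 65.1 CPM (-2.93 and -2.20), with 65.8% of the wild-type non-cycling UMIs from 1 cell, and had -1.94 and -2.33 without the top cells. Crct1 had -5.23 and -1.24, with 94.2% from 1 wild-type cell, and -1.57 and -0.34 without the top cells. Psca had -1.77 and -0.45, with 72.4% of the wild-type non-cycling UMIs from 1 cell, and its wild-type ratio turned to 0.05 without it. The superficial markers together summed to 499 and 754 CPM in cycling and to 1047 and 1085 CPM in non-cycling cells. Thinned to 5000 UMIs, Krt4 was at 0.042 in the wild-type, and with doublet calls removed Crct1 was at 0.10 in the heterozygote, so neither kept its direction under every setting.

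For 6 other genes at least 2-fold lower, the ratios stayed below -1 in both libraries without the top cell of each group. Aldoa, the glycolytic aldolase, stood at 164 against 380 CPM and at 182 against 366 CPM (-1.21 and -1.01), and was at -1.28 and -1.04 without the top cells. It had a UMI in 89.8% of cycling against 98.4% of non-cycling wild-type cells and in 86.1% against 95.01% of heterozygote cells. Ccnd2 was at -1.12 and -1.05 without the top cells. S100a9, a subunit of the alarmin calprotectin, stood at 12.4 against 42.7 CPM and at 40.3 against 131 CPM (-1.77 and -1.70), and was at -1.91 and -1.74 without the top cells. Ifitm1, an interferon-induced membrane protein, stood at 190 against 488 CPM and at 461 against 984 CPM (-1.36 and -1.09, and -1.38 and -1.18 without the top cells). Pglyrp1, a peptidoglycan recognition protein, stood at 64.1 against 137 CPM and at 211 against 454 CPM (-1.09 and -1.10, and -1.21 and -1.15 without the top cells). BC100530, of the stefin A family with near-identical copies, was at 451 against 1054 CPM and at 815 against 1667 CPM, with ratios of -1.32 and -1.08 without the top cells. S100a9, Ifitm1, Pglyrp1 and BC100530 were thus lower in cycling cells of each library, and each of them was higher in the heterozygote than in the wild-type library in both groups.

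Between the libraries, cycling cells were compared for the 2212 genes whose mean reached 50 CPM, as the log2 ratio of heterozygote over wild-type. Of these, 18 (0.814%) were at least 1.5-fold higher and 11 (0.497%) at least 1.5-fold lower in the heterozygote. These counts moved with the processing, to 37 and 39 with cells thinned to 5000 UMIs, to 33 lower at 8000 UMIs, to 9 higher without doublet calls and to 5 lower under TMM scaling. In non-cycling cells the numbers were 37 (1.67%) and 13 (0.588%). Cycling cells held Becn1 itself at 41.7 CPM (wild-type) and 40.3 CPM (heterozygote) (-0.05, -0.38 to 0.28), and at 38.3 and 40.5 CPM in non-cycling cells (0.08). A 3′ tag outside the altered part of a gene does not check the genotype, and the altered part is not given in the sources used here.

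**Figure D5:**
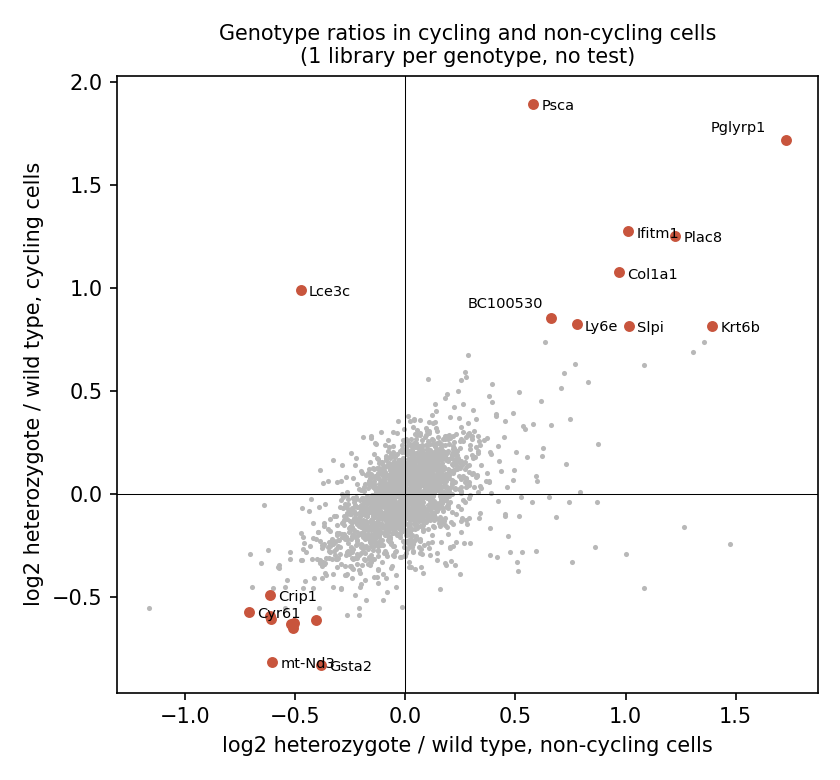
Log2 ratio of heterozygote over wild-type in cycling (y axis) and in non-cycling (x axis) corneal basal cells for the 2212 genes whose mean reached 50 CPM in cycling cells. Pglyrp1, Ifitm1 and Plac8 are higher in the heterozygote in both groups, and Gsta2 and mt-Nd3 lower in both.

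Psca, a surface antigen of superficial epithelium, had the highest ratio of heterozygote over wild-type of the 2212 genes and stood at 56.9 CPM in wild-type cells against 212 CPM in those of the heterozygote (1.90, 1.67 to 2.13, beside 0.58 in non-cycling cells), and at 1.59 without the top cell of each library. Pglyrp1 had 1.72 beside 1.73, Ifitm1 1.28 beside 1.01, and Plac8, at 46.9 against 112 CPM, 1.26 beside 1.23. Ly6e and the secreted protease inhibitor Slpi had 0.82 beside 0.78 and 0.82 beside 1.01. Col1a1, a stromal collagen, stood at 38.1 against 80.6 CPM (1.08), with 29.3% of the heterozygote UMIs from 1 cell, and was at 0.62 without the top cell of each library. Krt6b, a keratin with a near-identical copy, was at 0.82, and at -0.39 once doublet calls were removed. Stromal markers summed to 93.8 and 182 CPM and superficial markers to 499 and 754 CPM in the same cells, and their part in these ratios was not tested.

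Among lower genes, Gsta2, a glutathione transferase, stood at 93.5 CPM in cycling cells of the wild-type against 52.6 CPM (-0.83, beside -0.38 in non-cycling cells). The mitochondrial transcript mt-Nd3 was at -0.82 beside -0.60. Lamb3, another laminin chain, was at -0.61 beside -0.61. The ratios of these 3 genes had the same sign in non-cycling cells. Cell cycle genes differed by less. Of the measured spindle genes, 8 of 9 were lower in the heterozygote (median -0.30), as were 16 of 18 chromatin and condensin genes (median -0.20) and 4 of 4 replication genes (median -0.29), beside 51.5% lower among all genes. In non-cycling cells the medians of these lists were 0.05, 0.04 and 0.07, and the difference between the groups was not tested. Thinned to 8000 and 5000 UMIs, the cycling medians were -0.31 and -0.32 for spindle genes, -0.21 and -0.11 for chromatin and condensin genes, and -0.66 and -0.52 for replication genes. Cyclins and kinases had a median of -0.04, beside 0.79 in non-cycling cells, and kinetochore genes -0.14 beside 0.48. The filter of 50 CPM was set on cycling cells alone, and several of the non-cycling values rest on few UMIs. The 0.79 is the value of Ccnb1, on 9 wild-type and 21 heterozygote UMIs, with an interval of -0.35 to 2.15. All 7 measured autophagy genes were higher, with a median of 0.12, beside 48.5% higher among all genes. In non-cycling cells 4 of the 7 were higher (median 0.04). With cells thinned to 8000 and 5000 UMIs the autophagy median in cycling cells was 0.11 and 0.18. Over all alternatives it ran from -0.055 to 0.18, so it did not keep its sign under every setting.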

How the data were processed

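The files deposited hold raw UMI counts of each gene in each cell barcode, with no normalization by the authors, for 1 wild-type and 1 Beclin1 +/- library. Per the submitters' processing notes they were made with Cell Ranger 2.1.1 on mm10. Which barcodes were called cells, and on which annotation, is not stated there. All barcodes together held 54913980 and 74363359 UMIs, and none was left out. The cycling cells and the gene lists were chosen with earlier results of these data known. Counts were summed per library and group and scaled to CPM, with no scaling by gene length, since a 3′ tag is counted once per molecule. Ratios had 0.5 added to each count. Intervals are exact conditional for ratios, exact Poisson for levels and exact binomial (Clopper-Pearson) for shares, at 95%, and UMIs limit them to counting error. Doublets were called with Scrublet in scanpy 1.11.5 at 0.8% per 1000 barcodes and were kept, and their removal was an alternative. Genes were named by rank: the 15 highest and lowest in cycling over non-cycling cells by the library nearer to 0, 10 at each end between libraries, 8 at each end of the replication order, and up to 2 per list and end. Counts were also simulated as Poisson draws around the real summed counts. Between cycling and non-cycling cells, 100 of 100 raised and 98 of 100 lowered genes were recovered at a log2 change of 1.5, over 4072 genes. In the genotype comparison over 2212 genes, 100 of 100 each way were recovered at a log2 change of 1. In neither was an unaltered gene called. The draws held no spread between cells, no doublets and no library difference, so calls due to those were not tested. The scripts ran on Python 3.11.15 with pandas 2.3.3, numpy 2.4.6, scipy 1.17.1 and matplotlib 3.10.9.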

Additional observations from a re-analysis of the deposited data

Results flagged for a closer look

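Of the 2212 genes whose mean reached 50 CPM in cycling cells, 39 (1.76%) had the heterozygote and wild-type libraries in opposite order in cycling and in non-cycling cells with both intervals clear of 0, and the difference was not tested. Of these, 7 were named by the rule or described above. 2810417H13Rik (Pclaf) had a log2 ratio of heterozygote over wild-type of -0.24 in cycling and 1.47 in non-cycling cells, and Racgap1, a regulator of cytokinesis, -0.29 and 1.00. Stmn1 had -0.28 and 0.53, Tyms -0.28 and 0.48, and Tubb5 -0.34 and 0.18. Krt16 had -0.24 and 0.29. Lce3c had 0.99 and -0.48, and 57.3% of its wild-type cycling and 43.0% of its wild-type non-cycling UMIs came from 1 cell each. The chemokine gene Cxcl2 had a ratio of cycling over non-cycling of 0.19 in wild-type cells and of -0.19 in those of the heterozygote, which was not tested either.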

How the results depend on the processing

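No paired analysis was possible because each genotype had 1 library, and for the same reason no replicate could be left out. Of the values of single genes in cycling over non-cycling cells under the alternatives, 2473 stayed within their interval, 583 moved and 4 reversed. With a score of at least 200 CPM the heterozygote cycling share was 24.3%, 8 genes were 2-fold lower, and Krt13 was at 0.012 in the wild-type. With at least 500 CPM the share was 17.8% and 36 genes were lower. Thinned to 8000 UMIs, 33 genes were 1.5-fold lower in heterozygote cycling cells. Thinned to 5000, 37 were higher and 39 lower, and Krt4 was at 0.042 in the wild-type cycling over non-cycling comparison. With doublet calls removed, 9 genes were higher in heterozygote cycling cells, Crct1 was at 0.10 in the heterozygote cycling over non-cycling comparison, and Krt6b at -0.39 between the libraries. TMM scaling left 5 genes lower in heterozygote cycling cells. With a mean of at least 100 CPM, 24 genes were 2-fold higher and 4 lower in cycling cells, 11 higher and 7 lower in the heterozygote, and the deoxynucleotide list had medians of -0.10 and -0.023. With no filter on level the same counts were 1289, 208, 2361 and 1919. Without the top cell of each group, an alternative chosen after seeing the data, as was the order without doublet calls, Psca was at 0.053 in the wild-type. Depth limits genes under a few UMIs per group. The filters on level used means over groups, so genes with few UMIs in 1 group stayed in. Spc25, for example, had 6 UMIs in wild-type non-cycling cells.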

Other observations

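Several gene groups outside the cell cycle differed between cycling and non-cycling corneal basal cells by less than a named gene of the mitotic lists. Of 26 measured oxidative phosphorylation genes, 20 were higher and 4 lower in both libraries, beside 52% higher and 25.8% lower among all measured genes, with medians of 0.12 and 0.12, which the TMM shift of 0.135 and 0.120 takes to about 0. Cox7a2, of cytochrome oxidase, was at 0.38 and 0.38. Ribosomal protein genes were lower in 24 of 39 and higher in 5, with medians of -0.09 and -0.02. Cholesterol synthesis genes were higher in 10 of 17 and lower in 2, a share of higher genes near that of all genes. Autophagy genes were higher in 5 and lower in 5 of 14, with Map1lc3b, the LC3 protein of autophagosomes, at -0.21 and -0.24. Immediate early genes were higher in 4 and lower in 9 of 19.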
